A study of Mus musculus with 29 samples.

Results

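The solute carrier genes described here are 124 of the 24448 genes in a count table of mouse nuclear transfer embryos and cumulus cells. They were chosen by level: of 358 symbols with the Slc pattern, 3 were set aside by the selection rule, 231 were under the threshold and 124 reached at least 20 CPM, the number of counts scaled to a common library total, in the sum of the cumulus cells or as the mean of the control embryos. Of the 124, 60 reached it in the control embryos only, 30 in the cumulus cells only and 34 in both. Just inside were Slc25a29 with a mean of 20.3 CPM in controls and Slc46a1 with 20.6 CPM in cells, and just outside were Slc13a2 with 19.8 CPM and Slc26a9 with 19.7 CPM in controls. Because these levels chose the members, the contrast of cells with controls is given as a description and was not tested.

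The libraries held 9 control embryos, 8 embryos treated with hydroxyurea (HU) and 12 single cumulus cells. Each embryo library was 1 whole BDF1 mouse embryo, made from an oocyte whose own nucleus had been replaced by that of a cumulus cell, one of the somatic cells around the oocyte. All 17 embryos were activated for 6 h in KSOM medium with 10 mM strontium, 5 ug/ml CB and 2 mM EGTA. They were then divided at random between medium without HU and medium with 10 uM HU, an inhibitor of ribonucleotide reductase. The HU medium was exchanged for medium without the drug after 24 h, and collection followed at the 2-cell stage, at 28 h from activation. The cumulus cells, also BDF1, were untreated and represent the donor cell type. The labels name no animal, culture or day, so the 12 cells were summed and count as 1 sample, and p-values between embryos measure only the spread between these embryos. In an embryo library, fewer cells and less RNA per cell cannot be told apart.

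Solute carriers are membrane proteins that move small molecules without hydrolysing ATP themselves. Some run down a gradient, others couple the substrate to sodium, protons or an exchanged molecule, and the SLC25 family sits in the inner mitochondrial membrane. Cumulus cells are known to take up amino acids and to pass them and pyruvate to the oocyte through gap junctions. Zinc import and the glycine transporter GLYT1, which sets cell volume in early mouse embryos, are known to matter in the oocyte and the cleaving embryo.

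Gene counts per library ranged from 317195 to 4051494 in cells, from 1801261 to 3472116 in controls and from 2442541 to 3757492 in HU embryos. The labelled cell type was checked with 22 cumulus and granulosa markers, of which 12 had a count in at least 6 cells. Their summed level ranged from 442 to 12593 CPM in cells, from 201 to 374 CPM in controls and from 198 to 325 CPM in HU embryos. Cyp11a1 and Hsd3b1 held 1807.7 and 1635.3 of the 4443.5 CPM of this list in the summed cells. Areg, Kitl, Akap12 and Hmgcs1 were lower in cells than in controls, and the other listed markers were higher. Of 15 oocyte and early embryo markers, 9 were at 0 in all cells, and the list summed to 7.73 to 225 CPM in cells against 10765 to 18692 CPM in controls and 8299 to 18729 CPM in HU embryos. Spin1 held 75.6 of the 78.4 CPM of that list in the summed cells. Rn45s, the precursor of ribosomal RNA, took 49.3% to 86.6% of gene counts in cells, 16.2% to 32.5% in controls and 15.2% to 28.98% in HU embryos. Cumulus cell 2 stood apart with the highest share of Rn45s, and cumulus cell 10 with the lowest total and a count for 25 of the members. A CPM value in the cells is therefore a share of a total that ribosomal RNA mostly fills. The counts behind the members' ratios of cells to embryos were also scaled without Rn45s and the mitochondrially encoded genes. All intervals and floors cover counting error only, since the reads carry no molecular identifiers. The table holds no strand information, so reads from overlapping genes cannot be told apart; 22 of the 124 members overlap another protein-coding gene in GENCODE M21 on GRCm38.

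Promoters are shown for 6 members at the ends of the contrasts described below, as 250 bases before and 50 bases after a start listed by RefSeq on GRCm38.p6, read 5' to 3' on the gene's strand. Slc45a3, Slc7a1 and Slc5a6 have 2 listed starts, and the window nearest the GENCODE gene start is shown. Capitals mark the GC box (GGGCGG), the E-box (CACGTG) and the TATA box (TATAAA) on either strand. The first 2 belong to genes high in embryos and absent or nearly absent in cells: Slc34a2 at chr5:53049103-53049402 on the plus strand and Slc45a3 at chr1:131962665-131962964 on the plus strand.
Slc34a2: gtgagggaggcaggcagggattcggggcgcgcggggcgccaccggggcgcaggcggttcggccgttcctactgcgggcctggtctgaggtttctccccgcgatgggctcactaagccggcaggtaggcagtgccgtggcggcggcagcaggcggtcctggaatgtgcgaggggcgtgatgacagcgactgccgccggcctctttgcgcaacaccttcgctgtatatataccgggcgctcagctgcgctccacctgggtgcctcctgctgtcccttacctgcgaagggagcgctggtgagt
Slc45a3: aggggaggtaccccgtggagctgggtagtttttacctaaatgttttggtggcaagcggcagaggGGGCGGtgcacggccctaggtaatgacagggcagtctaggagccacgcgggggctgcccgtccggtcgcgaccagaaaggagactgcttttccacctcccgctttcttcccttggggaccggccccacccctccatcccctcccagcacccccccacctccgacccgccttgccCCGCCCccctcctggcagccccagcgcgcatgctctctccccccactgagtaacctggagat
The next belong to amino acid transporters high in cells: Slc7a8 at chr14:54781837-54782136 and Slc7a1 at chr5:148399855-148400154, both on the minus strand.
Slc7a8: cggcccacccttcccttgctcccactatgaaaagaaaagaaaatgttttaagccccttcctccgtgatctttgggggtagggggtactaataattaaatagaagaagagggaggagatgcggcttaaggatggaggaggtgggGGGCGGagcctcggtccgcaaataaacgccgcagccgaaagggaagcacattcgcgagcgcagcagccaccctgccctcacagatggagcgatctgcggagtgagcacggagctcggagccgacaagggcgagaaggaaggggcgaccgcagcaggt
Slc7a1: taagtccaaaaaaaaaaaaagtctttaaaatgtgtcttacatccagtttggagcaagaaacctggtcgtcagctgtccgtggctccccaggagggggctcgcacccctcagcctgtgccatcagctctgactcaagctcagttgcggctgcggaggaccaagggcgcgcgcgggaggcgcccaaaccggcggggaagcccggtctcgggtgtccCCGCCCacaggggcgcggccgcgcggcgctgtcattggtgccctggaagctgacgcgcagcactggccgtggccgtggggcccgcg
The last belong to vitamin transporters described in the comparison of HU and control embryos: Slc19a3 at chr1:83038399-83038698 and Slc5a6 at chr5:31048513-31048812, both on the minus strand.
Slc19a3: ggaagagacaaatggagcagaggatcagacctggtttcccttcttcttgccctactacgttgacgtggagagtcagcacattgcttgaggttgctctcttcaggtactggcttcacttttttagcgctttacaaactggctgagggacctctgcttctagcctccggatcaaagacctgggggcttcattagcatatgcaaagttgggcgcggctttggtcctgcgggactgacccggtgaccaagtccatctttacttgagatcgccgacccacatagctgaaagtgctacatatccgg
Slc5a6: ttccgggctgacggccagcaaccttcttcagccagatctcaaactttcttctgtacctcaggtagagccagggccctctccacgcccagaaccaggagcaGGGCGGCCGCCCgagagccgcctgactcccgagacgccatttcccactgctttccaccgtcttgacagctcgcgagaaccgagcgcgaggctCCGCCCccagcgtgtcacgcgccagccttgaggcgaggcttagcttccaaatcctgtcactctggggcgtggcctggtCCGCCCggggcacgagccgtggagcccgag
The Slc34a2 and Slc19a3 windows hold none of these letters, Slc45a3 holds 2 GC boxes, Slc7a8 and Slc7a1 hold 1 each, and Slc5a6 holds 4, of which a pair lie end to end as GGGCGGCCGCCC. The windows not shown hold a TATA box and no GC box for Slc45a3 and Slc7a1, and a GC box for Slc5a6. RefSeq listed promoters for 98 of the 124 members, 129 in all. The GC box occurred in 70.5% of them, against 64.8% of the 7832 promoters of all genes at 20 CPM in cells or controls and 35.9% of all 32544 promoters of that length. The E-box occurred in 18 of the 129, and in 10.5% and 7.17% of the 2 larger sets, and the TATA box in 8 of the 129, and in 6.89% and 13.6%. The median GC content of the members' promoters was 61.3%, equal to that of the genes at 20 CPM, and it was 53.0% over all promoters. These matches are a description of the letters and say nothing of binding.

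Detection of the members differed between cells and embryos. A single cell held a count for 25 to 95 of the 124 members, with a median of 77.5, against 117 to 124 in control embryos and 116 to 123 in HU embryos. Over all genes detection differed likewise, with 4054 to 8629 in a cell, 13875 to 15132 in a control embryo and 12887 to 15421 in an HU embryo. The choice of members by the control mean also favours detection in controls. In all 12 cells 7 members had a count, 84 had one in at least 6 cells and 4 had none in any cell. In contrast, 112 members had a count in all 9 controls and 112 had one in all 8 HU embryos. Together the members took a median of 0.569% of gene counts in cells, with a range of 0.112% to 0.719%. The medians were 0.699% in controls, ranging from 0.561% to 0.773%, and 0.699% in HU embryos, ranging from 0.563% to 0.885%. With Rn45s left out the order turned, with medians of 1.33% in cells, 0.858% in controls and 0.942% in HU embryos. Against the added ERCC spike-in RNAs, the members' counts per 1000 ERCC counts came to 1.11 to 16.1 in single cells, 73.2 to 134.6 in controls and 84.2 to 190.3 in HU embryos. These ranges of cells and embryos do not overlap. Neither do the ERCC counts themselves, with 452745 to 3102342 in cells, 111051 to 279966 in controls and 114364 to 266160 in HU embryos, while total gene counts overlap. The gap is one of whole libraries and is not particular to the members.

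Per kilobase of transcript, Slc3a2 was the only carrier among those listed below for both control embryos and cells. These short lists do not show how far the leaders of 1 group fell in the other. In control embryos the highest deposited FPKM values belonged to Slc45a3, with 124 ± 32.4 FPKM (SD, n = 9), and to the mitochondrial glycine carrier Slc25a38, with 114 ± 16.1 FPKM (SD, n = 9). Slc25a48, another mitochondrial carrier, followed with 104 ± 23.5 FPKM (SD, n = 9), and these 3 means differ by less than 1 SD. Slc3a2, the heavy chain that carries several amino acid transporters to the membrane, came next with 87.0 ± 15.8 FPKM (SD, n = 9). In the summed cells the highest levels were those of the mitochondrial phosphate carrier Slc25a3, with 294 CPM per kilobase, the ADP/ATP carrier Slc25a5, with 149, the glutathione carrier Slc25a39, with 147, Slc3a2, with 141, and the ADP/ATP carrier Slc25a4, with 125 CPM per kilobase. Slc25a4 and Slc25a5 are close paralogs, and the handling of reads that fit both is not given in the sources used here.

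Ratios of cells to controls were taken on the log2 scale with 1 CPM added. At least 4-fold higher in cells were 16 of 124 members (12.9%), against 9.63% of the 7831 genes at 20 CPM in either group, and at least 4-fold lower were 41 members (33.1%), against 39%. The median log2 ratio was -0.99 for the members and -1.37 for those genes. Leaving Rn45s and the mitochondrially encoded genes out of the library size moved the median of all those genes to -0.46 and that of the members to -0.07. On that scale 41 members (33.1%, background 16.6%) were 4-fold higher in cells and 31 (background 27.4%) were lower. TMM factors gave 41 higher (background 17.9%) and 29 lower (background 25.7%). Under all 3 scalings the same 16 members were 4-fold higher in cells and the same 29 were 4-fold lower, and 13 members changed sign between scalings. Without cumulus cell 2 the counts on library size were 17 higher and 41 lower, and without cumulus cell 10 they were 16 and 41. These counts come from the levels that chose the members and are read as a description.

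**Figure D1:**
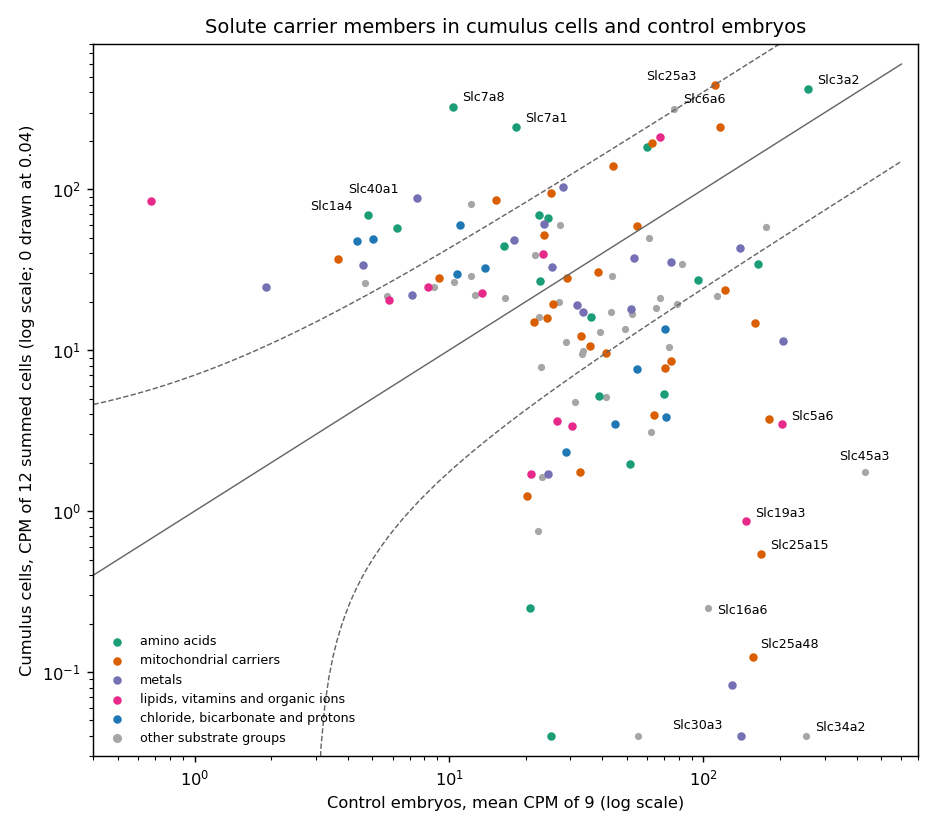
CPM of each member in the 12 summed cumulus cells (vertical axis, log scale, 0 drawn at 0.04) against its mean CPM in the 9 control embryos (horizontal axis, log scale), 1 point a gene, coloured by substrate group. The solid line marks equal levels and the dashed lines a 4-fold difference after 1 CPM is added; 16 members lie above the upper dashed line and 41 below the lower one, and the 4 members with no count in any cell lie along the bottom.

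**Figure D2:**
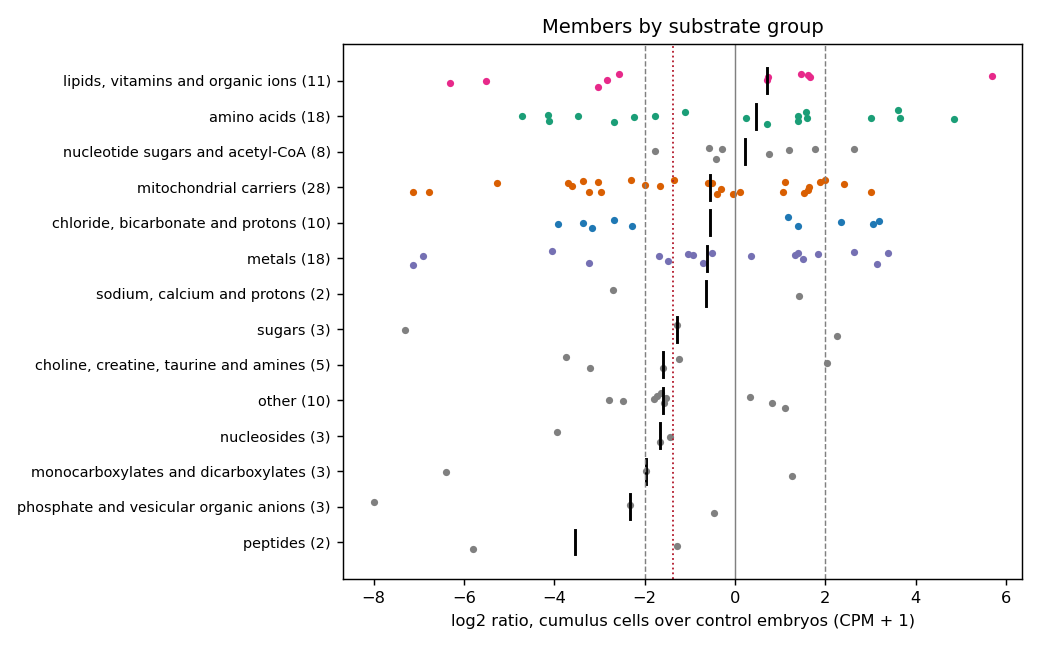
Log2 ratio of summed cumulus cells to control embryos (CPM + 1, horizontal axis) for each member, by substrate group with the number of members in brackets; points are genes, black bars group medians, dashed lines a 4-fold difference and the dotted line the median of -1.37 over all genes at 20 CPM. The medians of lipids and vitamins (0.72), amino acids (0.47) and nucleotide sugars (0.23) are above 0; those of mitochondrial, chloride, metal and sodium carriers are below 0 here and above 0 without Rn45s in the library size (0.36, 0.36, 0.31 and 0.26).

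Among 18 amino acid transporters, 4 were at least 4-fold higher in cells and 6 were at least 4-fold lower, with a median log2 ratio of 0.47. With Rn45s left out of the library size, and likewise with TMM factors, 8 were higher and 4 lower, and the medians were 1.40 and 1.55. Slc7a8, the light chain LAT2 for neutral amino acids, had 327 CPM in the summed cells (exact Poisson 95% interval 319 to 334), with 0 CPM in the lowest cell, a median of 316 and 495 in the highest. It had 1.32, 13.9 and 20.2 CPM as the lowest, median and highest control and 4.32, 10.4 and 19.2 CPM in HU embryos. All cells but 1 lay above every control, and the summed level was 31.4-fold that of controls, a log2 ratio of 4.85.

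Slc7a1, the cationic amino acid transporter CAT1, had 243 CPM in summed cells (237 to 249), and single cells held 0, 185 and 509 CPM as lowest, median and highest. Controls held 6.91, 12.2 and 38.5 CPM and HU embryos 5.73, 15.2 and 26.6 CPM, so 10 of 12 cells exceeded every control, for a log2 ratio of 3.66. Slc1a4, the neutral amino acid exchanger ASCT1, had 69.2 CPM in cells against 4.79 ± 6.44 CPM in controls (SD, n = 9) and 12.9 ± 9.196 CPM in HU embryos (SD, n = 8). Its log2 ratio of 3.60 fell to 2.96 without cumulus cell 3, which held 43.3% of its counts. Slc38a1, a sodium-coupled glutamine transporter, was at 57.2 CPM in cells and 6.23 ± 4.96 CPM in controls (SD, n = 9), with a log2 ratio of 3.01. Slc3a2, the partner chain of LAT2, had a count in all 12 cells, with 30.6, 398 and 756 CPM as lowest, median and highest. In controls it ran from 204 to 335 CPM and in HU embryos from 178 to 303 CPM, and the groups overlapped.

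On the embryo side, Slc1a1, the glutamate transporter EAAC1, had no count in any cell and 0, 24.1 and 59.8 CPM as lowest, median and highest control, which makes it at least 201-fold lower in cells by the floor of 3 counts over the 12 cells. Its HU values of 0, 15.4 and 118 CPM spread even more widely. Slc6a15, a transporter of branched-chain amino acids and proline, was at 51.3 ± 15.5 CPM in controls (SD, n = 9) and 41.9 ± 10.5 CPM in HU embryos (SD, n = 8). All its 47 counts in cells came from cumulus cell 2, and its log2 ratio went from -4.15 to -5.71 without that cell. Slc38a8 was at 20.7 ± 4.73 CPM in controls (SD, n = 9) against 0.249 CPM in cells, a log2 ratio of -4.12. Slc6a9, the glycine transporter GLYT1, was detected in both: 34.3 CPM in summed cells, with 83.8 CPM in the highest cell, against 84.8, 186 and 231 CPM as lowest, median and highest control. On library size every control exceeded every cell for Slc6a9 and its log2 ratio was -2.23. Without Rn45s the groups overlapped, with 273.7 CPM in the highest cell and 120.6 CPM in the lowest control, and the ratio was under 4-fold at -1.29, or -1.14 with TMM. Slc7a11, the cystine-glutamate exchanger xCT, had 5.196 CPM in cells and 39.0 ± 8.01 CPM in controls (SD, n = 9), and its log2 ratio of -2.69 became -3.67 without cumulus cell 9. It was under 4-fold without Rn45s (-1.89) and with TMM (-1.73).

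Carriers of lipids, vitamins and organic ions numbered 11, with 1 at least 4-fold higher in cells, 5 lower and a median log2 ratio of 0.72. Without Rn45s 4 were higher and 4 lower, with a median of 1.65, and with TMM 4 were higher and 3 lower, with a median of 1.78. Slc23a2, the ascorbate transporter SVCT2, had a count in all 12 cells and 210 CPM in their sum, against 67.8 ± 20.1 CPM in controls (SD, n = 9) and 66.9 ± 12.4 CPM in HU embryos (SD, n = 8). Its log2 ratio of 1.62 on library size was under 4-fold, and it was 2.57 without Rn45s and 2.72 with TMM.

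The thiamine transporter Slc19a3 stood at the other end. It had 55.1, 160 and 256 CPM as lowest, median and highest control, 63.7, 164 and 759 CPM in HU embryos, and 21 counts in cells, all from cumulus cell 2. On library size every control lay above every cell, while without Rn45s cumulus cell 2, at 133.67 CPM, exceeded the lowest control, at 70.84 CPM. The log2 ratio of -6.31 became -7.21 without that cell. Slc5a6, the sodium-dependent transporter of biotin and pantothenate, had 204 ± 93.5 CPM in controls (SD, n = 9) and 3.49 CPM in cells. Its log2 ratio was -5.51, or -6.53 without cumulus cell 3, and it overlaps Atraid on the opposite strand. Slc10a6, a carrier of sulphated steroids, was at 21.1 ± 17.1 CPM in controls (SD, n = 9) with 41 counts in 1 cell, and its log2 ratio of -3.03 became -4.46 without cumulus cell 9.

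Metal carriers numbered 18, with 3 at least 4-fold higher in cells, 4 lower and a median log2 ratio of -0.61, or 0.31 without Rn45s in the library size. Both without Rn45s and with TMM, 7 were higher and 4 lower, and the zinc transporters fell on both sides. Slc30a3 (ZnT3), which loads zinc into vesicles, had no count in any cell and 89.3, 155 and 173 CPM as lowest, median and highest control, at least 1122-fold lower in cells. HU embryos held 51.2, 112 and 161 CPM, and the gene overlaps Dnajc5g on the opposite strand. Slc30a2 (ZnT2), also a vesicular zinc exporter, had 2 counts in cells and 129 ± 40.3 CPM in controls (SD, n = 9), a ratio of 1557 with a counting interval of 431 to 12858. Slc39a10 (ZIP10), a zinc importer of the plasma membrane, was at 205 ± 29.9 CPM in controls (SD, n = 9), 173 ± 22.6 CPM in HU embryos (SD, n = 8) and 11.5 CPM in cells, a log2 ratio of -4.04. The related importer Slc39a6 (ZIP6) was at 139 ± 38.5 CPM in controls (SD, n = 9) and 42.9 CPM in cells, under 4-fold.

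On the cell side, the zinc carrier Slc39a13 had 24.7 CPM in cells against 1.90 ± 1.45 CPM in controls (SD, n = 9), and Slc30a7 (ZnT7), which fills the Golgi with zinc, had 33.6 CPM against 4.57 ± 2.89 CPM (SD, n = 9). Their log2 ratios were 3.14 and 2.63. Slc39a7 (ZIP7), which releases zinc from the endoplasmic reticulum, was at 103 CPM in cells and 28.0 ± 9.68 CPM in controls (SD, n = 9), with a log2 ratio of 1.85 that was past 4-fold without Rn45s (2.81) and with TMM (2.94). Slc40a1, the iron exporter ferroportin, was uneven between cells: 7 of 12 had a count, with a median of 8.52 CPM and 468 CPM in cumulus cell 11. The summed level was 87.8 CPM against 7.47 ± 4.81 CPM in controls (SD, n = 9), with a log2 ratio of 3.39.

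The 28 mitochondrial carriers included 2 at least 4-fold higher in cells and 10 lower, with a median log2 ratio of -0.55, or 0.36 without Rn45s in the library size. On that scale 9 were higher and 9 lower, and TMM gave 9 higher and 8 lower. Slc25a48 had 3 counts in cells and 91.9, 165 and 194 CPM as lowest, median and highest control, a ratio of 1250 with a counting interval of 428 to 6062. Slc25a15, the ornithine carrier, had 169 ± 41.0 CPM in controls (SD, n = 9) and 157 ± 58.2 CPM in HU embryos (SD, n = 8). Its 13 counts in cells all came from cumulus cell 2, so its log2 ratio of -6.79 became -7.41 without that cell. Slc25a38 had 150, 175 and 238 CPM as lowest, median and highest control and 121, 154 and 181 CPM in HU embryos, against 3.74 CPM in cells, a log2 ratio of -5.26. For all 3 of these carriers every control exceeded every cell.

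On the cell side, Slc25a3 had a count in all 12 cells, with 8.54, 459 and 829.1 CPM as lowest, median and highest, against 72.1, 92.6 and 199 CPM in controls, and 10 cells lay above every control. Its log2 ratio of 1.99 on library size was just under 4-fold, and it was 2.95 without Rn45s and 3.10 with TMM. Slc25a5 had 193 CPM in cells and 62.8 ± 15.7 CPM in controls (SD, n = 9), and Slc25a4 had 139 CPM against 44.1 ± 11.9 CPM (SD, n = 9). Both were under 4-fold on library size and past it under the other scalings, at 2.56 and 2.57 without Rn45s. The citrate carrier Slc25a1, also present in all 12 cells, had 86.0 CPM against 15.3 ± 10.7 CPM (SD, n = 9), with a log2 ratio of 2.42. Slc25a24, an exchanger of ATP-Mg for phosphate, had 36.9 CPM against 3.67 ± 3.41 CPM (SD, n = 9), with a log2 ratio of 3.02.

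Among 10 chloride, bicarbonate and proton carriers, 3 were at least 4-fold higher in cells and 5 were lower, with a median log2 ratio of -0.56. The other scalings reversed this, with 5 higher and 3 lower in each and medians of 0.36 without Rn45s and 0.50 with TMM. The potassium-chloride cotransporter Slc12a7 had 60.2 CPM in cells and 11.01 ± 7.99 CPM in controls (SD, n = 9). Slc12a8 had 47.8 CPM against 4.35 ± 2.05 CPM (SD, n = 9), and the anion exchanger Slc4a3 had 49.4 CPM against 5.04 ± 3.56 CPM (SD, n = 9). On the embryo side the sulphate transporter Slc26a2 had 71.5 ± 28.2 CPM in controls (SD, n = 9) and 3.82 CPM in cells, and its log2 ratio of -3.91 became -5.04 without cumulus cell 6. Slc4a11 had 45.0 ± 31.9 CPM (SD, n = 9) against 3.49 CPM, a log2 ratio of -3.36. The anion exchanger Slc26a6 had 28.8 ± 14.6 CPM (SD, n = 9) against 2.33 CPM, with a log2 ratio of -3.16 that became -4.00 without cumulus cell 12. The sodium-dependent chloride and bicarbonate exchanger Slc4a8 had 70.3 ± 17.5 CPM (SD, n = 9) against 13.6 CPM, with a log2 ratio of -2.29 that became -3.03 without cumulus cell 8. It was under 4-fold without Rn45s (-1.39) and with TMM (-1.23).

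The sugar and phosphate groups held 3 members each. Slc45a3, of a sugar transporter family, held 243, 434 and 650 CPM as lowest, median and highest control and 172, 269 and 499 CPM in HU embryos. Its 42 counts in cells all came from cumulus cell 3, so 11 cells had none, and the log2 ratio of -7.30 became -8.75 without that cell. Slc37a4, the glucose 6-phosphate transporter of the endoplasmic reticulum, had 26.1 CPM in cells and 4.68 ± 3.71 CPM in controls (SD, n = 9). Its log2 ratio of 2.26 fell to 1.67, under 4-fold, without cumulus cell 7. Slc37a3 had 17.2 CPM in cells and 43.5 ± 16.4 CPM in controls (SD, n = 9).

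Slc34a2, the sodium-phosphate cotransporter NaPi-IIb, had no count in any of the 12 cells, which allows up to 0.125 CPM. Controls held 140, 223 and 586 CPM as lowest, median and highest and HU embryos 44.2, 218 and 714 CPM, so the level was at least 2026-fold lower in cells. Slc20a1, the widely expressed phosphate transporter PiT1, was at 113 ± 40.0 CPM in controls (SD, n = 9) and 21.7 CPM in cells, and on library size every control exceeded every cell. Its log2 ratio of -2.33 was under 4-fold without Rn45s (-1.44), where the highest cell was above the lowest control, and with TMM (-1.28). The lysosomal sialic acid carrier Slc17a5 had 22.6 ± 13.1 CPM in controls (SD, n = 9) and 16.1 CPM in cells, a log2 ratio of -0.46 that became positive, 0.46, without Rn45s in the library size and moved to -1.47 without cumulus cell 11.

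Of 3 carriers of monocarboxylates and dicarboxylates, Slc16a6 was 4-fold lower in cells. It had 6 counts in cells and 35.9, 105 and 164 CPM as lowest, median and highest control, a log2 ratio of -6.40, and it overlaps Amz2 and Arsg on the opposite strand. Slc16a1, the lactate and pyruvate transporter MCT1, varied among embryos, from 1.99 to 155 CPM in controls and from 4.32 to 166 CPM in HU embryos, against 19.4 CPM in cells. Slc16a11 had 26.5 CPM in cells and 10.4 ± 1.81 CPM in controls (SD, n = 9), and its log2 ratio of 1.27 was past 4-fold without Rn45s (2.20) and with TMM (2.32). Among 3 nucleoside and nucleobase carriers, Slc43a3, a purine nucleobase transporter, had 62.3 ± 21.4 CPM in controls (SD, n = 9) and 3.12 CPM in cells, a log2 ratio of -3.94 that became -4.59 without cumulus cell 3. The nucleoside transporter Slc29a2 had 33.5 ± 17.9 CPM (SD, n = 9) against 9.85 CPM, and the lysosomal nucleoside transporter Slc29a3 had 23.0 ± 13.8 CPM (SD, n = 9) against 7.81 CPM.

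In the group of 8 nucleotide sugar and acetyl-CoA carriers, 1 was 4-fold higher in cells and none was 4-fold lower, and under each of the other scalings 3 were higher. Slc35b2, which brings the sulphate donor PAPS into the Golgi, had 80.6 CPM in cells and 12.1 ± 6.72 CPM in controls (SD, n = 9), with a log2 ratio of 2.63, and 10 of 12 cells exceeded every control. Slc35c2 had 49.7 CPM in cells and 61.2 ± 25.5 CPM in controls (SD, n = 9), with a ratio that changed sign with the scaling. Slc35b4 had 13.6 CPM against 49.0 ± 15.2 CPM (SD, n = 9), with a log2 ratio of -1.77 that became -2.46 without cumulus cell 1. Among 5 carriers of choline, taurine and amines, the taurine transporter Slc6a6 had 316 CPM in cells (309 to 323) against 76.7 ± 22.7 CPM in controls (SD, n = 9). Its log2 ratio of 2.03 fell to 1.84 without cumulus cell 11, which is under 4-fold. The vesicular monoamine transporter Slc18a2 had 22.5 ± 6.65 CPM in controls (SD, n = 9) and 0.748 CPM in cells, a log2 ratio of -3.75 that became -4.42 without cumulus cell 8. The vesicular polyamine transporter Slc18b1 had 23.2 ± 11.9 CPM (SD, n = 9) against 1.62 CPM, a log2 ratio of -3.21 that became -3.92 without cumulus cell 12. The choline transporter-like Slc44a2 had 82.4 ± 44.8 CPM (SD, n = 9) against 34.5 CPM.

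The remaining groups were small. Slc15a5, of the peptide transporter family, had no count in any cell and 41.2, 53.4 and 76.5 CPM as lowest, median and highest control, at least 442-fold lower in cells. Its relative Slc15a4, a lysosomal transporter of histidine and peptides, had 11.2 CPM in cells and 28.7 ± 18.005 CPM in controls (SD, n = 9). The mitochondrial sodium-calcium exchanger Slc8b1 had 24.8 CPM against 8.70 ± 11.03 CPM (SD, n = 9), with a log2 ratio of 1.41 that fell to 0.56 without cumulus cell 7 and was 2.35 without Rn45s. Of the 10 other members, 2 were 4-fold lower in cells on library size, Slc35e3 with a log2 ratio of -2.79 and Slc35f2 with -2.49, which became -3.77 without cumulus cell 7. Neither was 4-fold lower without Rn45s, at -1.99 and -1.70, or with TMM, at -1.83 and -1.53, and 1 other member was then 4-fold higher. Slc35a4 had 58.1 CPM in cells and 176 ± 46.3 CPM in controls (SD, n = 9), and Slc10a3 had 21.2 CPM against 67.7 ± 29.2 CPM (SD, n = 9).

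**Figure D3:**
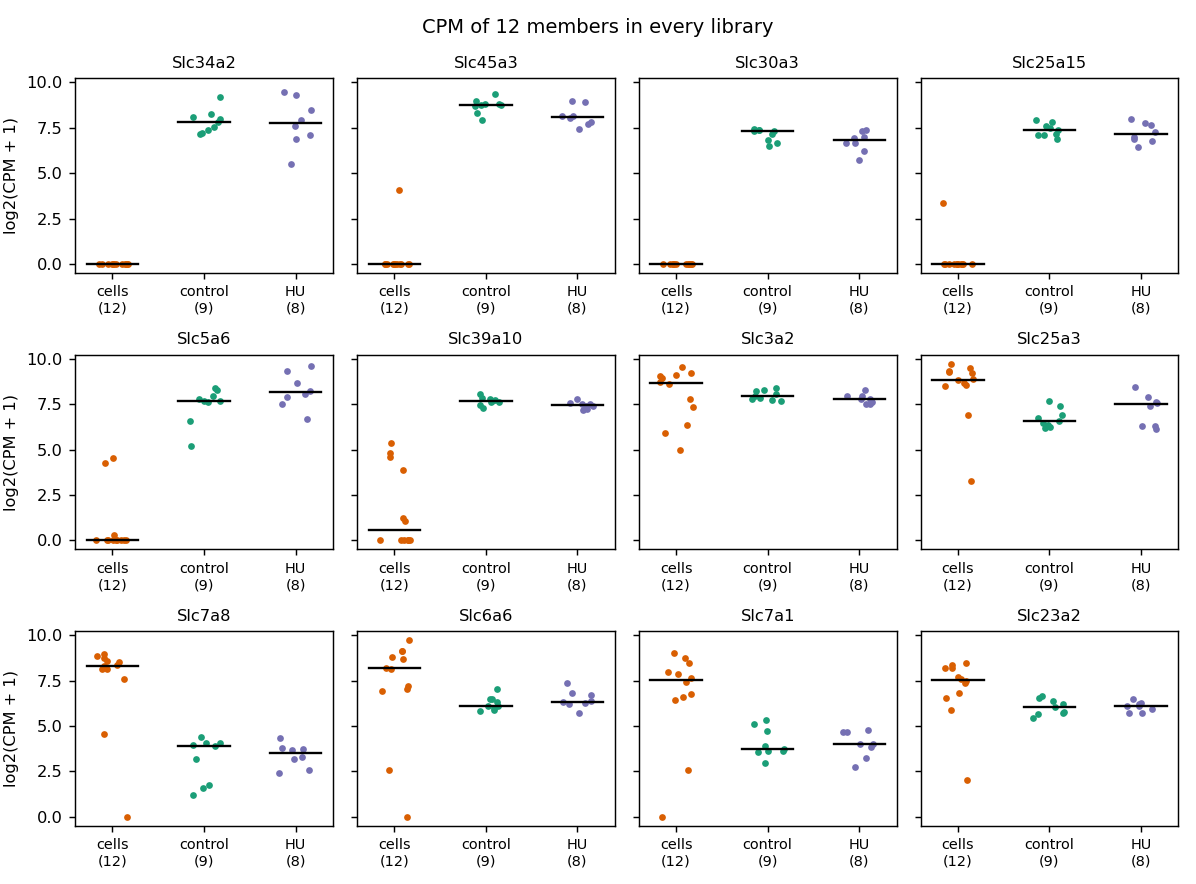
Level of 12 members in each library, as log2(CPM + 1), 1 point a library and 1 panel a gene, with the 12 cumulus cells, 9 control embryos and 8 HU embryos side by side; bars are medians. Slc34a2 and Slc30a3 are at 0 in every cell, Slc45a3 and Slc25a15 in all cells but 1, and for Slc7a8 all cells but 1, at 0 CPM, lie above every control.

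Over the whole set, every control exceeded every cell for 25 members on library size, and no member had every cell above every control. Without Rn45s and the mitochondrially encoded genes every control exceeded every cell for 13 members, all of them among the 25. On library size at least 9 of 12 cells exceeded every control for 11 members: Slc38a2, Slc25a5, Slc23a2, Slc25a4, Slc39a7, Slc25a3, Slc6a6, Slc35b2, Slc38a1, Slc7a1 and Slc7a8. Without Rn45s that number was 24. The same counts were not taken over all genes at 20 CPM, of which 39% were at least 4-fold lower in cells on library size. These counts of non-overlap are therefore not read as a trait of the carriers. With HU embryos as the reference, 16 members were 4-fold higher in cells (background 8.73%) and 43 were lower (background 39.3%), of which 13 and 40 were also 4-fold apart from controls. The single cells were uneven: leaving out 1 library moved the ratio of 29 members by over 1.5 times, and the value without that library stands beside the named members.

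Transport genes outside the Slc nomenclature were listed for comparison, 41 in the table and 23 at 20 CPM in cells or controls. On library size, 6 of those 23 were at least 4-fold higher in cells and 8 lower. Of all genes at 20 CPM in cells or controls, 9.63% were higher and 39% lower. This list was not scaled without Rn45s or with TMM factors, so its counts hold for library size only. Atp1b2, a beta subunit of the sodium pump, had 206 CPM in cells against 19.2 ± 11.9 CPM in controls (SD, n = 9). The gap junction protein Gja1 had 539 CPM against 13.6 ± 11.2 CPM (SD, n = 9), and the mitochondrial carrier Ucp2 had 317 CPM against 27.5 ± 19.3 CPM (SD, n = 9). Emb, a chaperone of monocarboxylate transporters, had 111 CPM against 17.04 ± 7.26 CPM (SD, n = 9). On the embryo side, Wnk1, a kinase upstream of cation-chloride cotransporters, had 371 ± 45.4 CPM in controls (SD, n = 9) and 52.5 CPM in cells. The channel Aqp9, which passes water and glycerol, had 90.6 ± 25.8 CPM (SD, n = 9) against 2.83 CPM, and the lysolipid transporter Mfsd2a had 67.2 ± 18.7 CPM (SD, n = 9) against 3.03 CPM.

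HU and control embryos were compared to see whether the treatment changed the carriers' transcripts. After adjustment none of the 121 members tested was called, in a fit of 11476 genes that called none (0%) with edgeR's quasi-likelihood test and Benjamini-Hochberg adjustment. DESeq2 called 0 members, while of 19499 genes it called 2 higher and 1 lower. With limma-voom 0 members and 0 of 11476 genes were called. At an unadjusted p under 0.05, 6 members (4.96%) were higher in HU embryos, against 3.81% of all genes, and 6 (4.96%) were lower, against 2.04%; in either direction the share of all genes was 5.85%. The median log2 fold change of the members was -0.03, against 0.04 over all genes tested, and 58 of 121 (47.9%) had a fitted change above 0, against 53.6%. No member had its HU embryos wholly above or wholly below the controls. The same count was not taken over all genes tested, so it is not read as a trait of the carriers. The 3 remaining members, Slc25a24 and Slc39a13 among them, were too low in embryos to be tested. The control side of this comparison is not fully independent of the selection, which used the control mean. With members chosen instead at 20 CPM in the summed cells or as the mean of all 17 embryos, 128 were tested. Their median log2 fold change was 0.02 and 66 were above 0. At an unadjusted edgeR p under 0.05, 8 were higher in HU embryos and 6 lower, and 0 passed after adjustment.

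**Figure D4:**
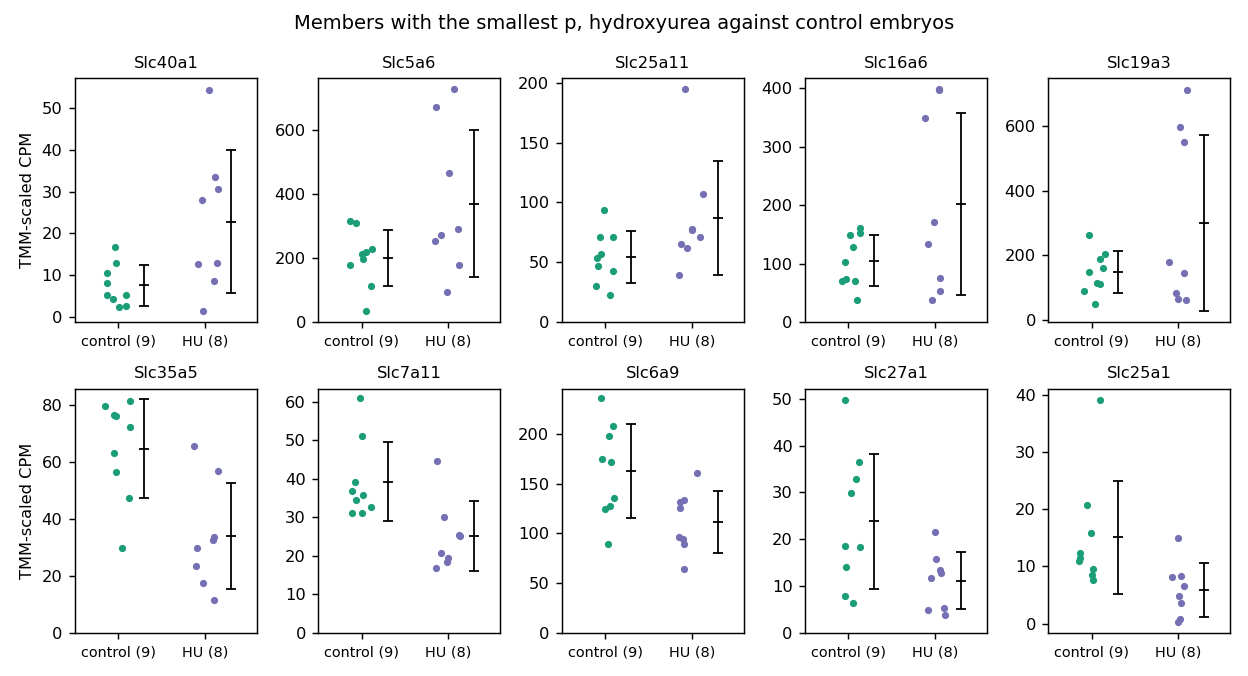
TMM-scaled CPM (linear axes) of the 5 members with the smallest p toward higher levels in HU embryos (upper panels) and the 5 toward lower levels (lower panels), 1 point an embryo, with the mean and SD beside the 9 control and 8 HU embryos. The groups overlap in all 10 panels, and 3 HU embryos lie above the rest for Slc5a6, Slc16a6 and Slc19a3.

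Values of this comparison are CPM scaled by TMM factors, and each change is a log2 fold change ± SE from the edgeR fit. Toward lower levels the smallest p belonged to Slc35a5, a member of the nucleotide sugar transporter family. It held 29.7, 72.5 and 81.4 CPM as lowest, median and highest control and 11.7, 31.3 and 65.8 CPM in HU embryos, so no HU embryo exceeded the control median. Its log2 fold change was -0.93 ± 0.30, with an unadjusted p of 0.00516 and an edgeR adjusted p of 0.829. Slc7a11 (xCT) held 31.0, 35.8 and 61.0 CPM in controls and 16.95, 22.9 and 44.6 CPM in HU embryos. Of the 8 HU embryos, 7 were below the lowest control, with HU embryo 1 as the exception, and the log2 fold change was -0.64 ± 0.24 (edgeR adjusted p 0.829).

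Slc6a9 (GLYT1) held 88.8, 172 and 236 CPM in controls and 63.8, 111 and 161 CPM in HU embryos, none of which exceeded the control median. Its log2 fold change was -0.54 ± 0.21 (edgeR adjusted p 0.829), and the gene overlaps Ccdc24 and B4galt2. The fatty acid transport protein Slc27a1 had 23.8 ± 14.4 CPM in controls (SD, n = 9) and 11.1 ± 6.13 CPM in HU embryos (SD, n = 8). The citrate carrier Slc25a1 had 15.1 ± 9.84 CPM (SD, n = 9) and 5.93 ± 4.72 CPM (SD, n = 8), with control embryo 7 at 39.0 CPM. Their log2 fold changes were -1.10 ± 0.43 and -1.34 ± 0.54, and both had an edgeR adjusted p of 0.829. Slc45a3 was at 429 ± 115 CPM in controls (SD, n = 9) and 305 ± 120 CPM in HU embryos (SD, n = 8), a log2 fold change of -0.49 ± 0.21.

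Toward higher levels the smallest p belonged to Slc40a1 (ferroportin), which also stood higher in cells. It held 2.27, 5.27 and 16.7 CPM as lowest, median and highest control and 1.39, 20.5 and 54.5 CPM in HU embryos. In HU embryos 7 of 8 exceeded the control median and 4 exceeded every control. The log2 fold change was 1.59 ± 0.52, with an unadjusted p of 0.00599 and an edgeR adjusted p of 0.829. Slc25a11, the oxoglutarate carrier, held 23.0, 53.7 and 93.4 CPM in controls and 39.5, 74.2 and 195 CPM in HU embryos, a log2 fold change of 0.68 ± 0.30. Without HU embryo 5, which held the highest value, that change was 0.39. Slc25a11 overlaps Rnf167 on the opposite strand.

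The other 3 of the 5 carriers with the smallest p toward higher levels had their 3 highest HU values in the same embryos. Slc5a6 held 35.3, 212 and 315 CPM in controls and 95.1, 281 and 726 CPM in HU embryos, a log2 fold change of 0.88 ± 0.37. Slc16a6, a transporter of ketone bodies, held 38.2, 102 and 161 CPM in controls and 37.6, 152 and 398 CPM in HU embryos, a log2 fold change of 0.94 ± 0.41. Slc19a3 held 51.0, 149 and 262 CPM in controls and 62.4, 164 and 713 CPM in HU embryos, a log2 fold change of 1.02 ± 0.45.

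For each of these 3 genes, HU embryos 4, 5 and 7 were the 3 highest of the HU group, and control embryo 3 was the highest control on the TMM-scaled values. In CPM on library size, control embryo 5 was the highest control for Slc5a6, with 332 against 308 CPM in control embryo 3, and for Slc16a6, with 164 against 157 CPM. The summed level of 5 markers of 2-cell stage transcription was 1424, 1230 and 2059 CPM in HU embryos 4, 5 and 7, and it was 87.3 to 922 CPM in the other HU embryos. It was 1797 CPM in control embryo 3, 607 CPM in control embryo 5 and 155 to 248 CPM in the other controls, and the part of this level in the result was not tested. By group mean, Sp110 alone held 307 of 421 CPM in controls and 643 of 787 CPM in HU embryos, so the sum mostly follows that gene. Zfp352 also had a higher mean in HU embryos (97.3 against 48.2 CPM). Tcstv3 (45.6 against 55.2 CPM), Zscan4d (1.00 against 8.65 CPM) and Zscan4c (0.40 against 1.69 CPM) had lower means there. Without HU embryo 5 the log2 fold changes of Slc5a6 and Slc19a3 were 0.66 and 0.70, and without HU embryo 7 that of Slc16a6 was 0.71. Without HU embryo 5, 1 member in place of 6 was higher at an unadjusted edgeR p under 0.05, and 282 of all genes in place of 437. Without HU embryo 7 these were 2 members and 322 genes. They were 3 members without control embryo 7 (365 genes) or control embryo 8 (425 genes), and 10 members without HU embryo 1 (508 genes).

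By substrate group, the fitted changes were spread on both sides of 0. Of 17 metal carriers tested, 12 were below 0 and 5 above, with a median of -0.14, and of 18 amino acid carriers 10 were below and 8 above, with a median of -0.08. Of 10 chloride and bicarbonate carriers 7 were above 0, with a median of 0.35, and of 27 mitochondrial carriers 14 were above and 13 below, with a median of 0.01. All 3 nucleoside and nucleobase carriers had a fitted change above 0, with a median of 0.42. No member of any group passed the adjusted threshold in edgeR, and the smallest adjusted p was 0.829.

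Spread between embryos was described for the 93 members with a mean of at least 20 CPM in embryos. Their median coefficient of variation was 37.2% in controls and 42.8% in HU embryos, against 34.2% and 39.2% over the 6824 genes at that level. The lowest value in controls was that of Slc25a38, at 14.5%, with 15.1% in HU embryos, and the lowest in HU embryos was that of Slc39a10, at 14.01%. Slc3a2 was at 17.9% in controls and 15% in HU embryos. The highest in controls was Slc25a30, at 93.8% against 62.96% in HU embryos, and the highest in HU embryos was Slc1a1, at 134% against 77.8% in controls, while Slc19a3 went from 43.4% in controls to 90.6% in HU embryos. These values are a description, and the difference in spread was not tested.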

How the data were processed

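RNA of 9 control and 8 hydroxyurea-treated mouse nuclear transfer embryos and 12 single cumulus cells was measured by Smart-seq2. The authors deposited raw read counts per gene, and a table of FPKM values that equalled the CPM per kilobase of transcript, computed from the deposited counts, for 18588 of 18588 genes checked (tolerance 0.001). The build was mm10 and the tools were STAR 2.7.3a, FastQC and R 4.0.2, per the submitters' processing notes. Not given in the sources used here: counter, annotation, strand setting. Library sizes and tests exclude the 92 ERCC spike-in RNAs. CPM is a count scaled to the library's total gene count. Positions come from GENCODE M21 and promoters from RefSeq, both on GRCm38, matched by symbol.

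Counts of the 12 cells were summed as 1 sample with exact Poisson intervals at 95%; a count of 0 uses a floor of 3 counts over the 12 cells. Embryos were compared with edgeR 4.0.16 in R 4.3.3 (quasi-likelihood F test, TMM, filterByExpr, no covariate) on all genes, with Benjamini-Hochberg adjustment at 0.05 and standard errors from the F statistic. The procedure was tested on simulated data. Alternatives were DESeq2 1.42.0, limma 3.58.1, other scalings, filters, pseudocounts and thresholds, and leaving out each library.

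The members and lists were chosen with earlier results of these data known. Named by rule were, in each substrate group, the 2 highest members in cells and in controls and the 3 largest ratios each way at 4-fold or more (with a count in at least 6 cells or 8 controls), and for hydroxyurea the 5 members with the smallest p each way at a mean of 10 CPM or more. Slc38a1, Slc39a6, Slc25a4, Slc25a5, and the carriers listed as above the controls in at least 9 cells, were named after their values were seen. A few genes named by this rule are not reported here.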

Additional observations from a re-analysis of the deposited data

Results flagged for a closer look

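Among the 64 named members, 128 groups of embryos were examined for an embryo whose gap to the nearest other was large against the range of its group, and 14 stood out. Chance gives about 1 in 20 where values are normally distributed. The values used were CPM without a log, whose distribution was not checked, so no excess over chance is read from this number. In control embryo 7, Slc25a1 was at 42.18 CPM, Slc35c2 at 122.6 CPM and Slc35f2 at 63.11 CPM. In control embryo 3, Slc34a2 was at 586.3 CPM and Slc35e3 at 106.6 CPM. Slc1a4 was at 21.1 CPM in control embryo 6, Slc6a6 at 128.0 CPM in control embryo 8 and Slc8b1 at 34.8 CPM in control embryo 5. In HU embryo 5, Slc25a11 was at 207.8 CPM and Slc39a7 at 56.12 CPM. In HU embryo 2, Slc18b1 was at 92.12 CPM and Slc25a24 at 15.77 CPM. In HU embryo 3, Slc12a8 was at 16.92 CPM. Slc7a11 was at 43.09 CPM in HU embryo 1, the one HU embryo not below the controls. Each of these is the highest value of its group.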

How the results depend on the processing

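No member passed the adjusted threshold in any setting run for HU against control. Over all genes, calls came only from DESeq2 (2 higher and 1 lower) and the edgeR fit without HU embryo 8 (1 higher). At an unadjusted p under 0.05, the 6 members higher in HU embryos became 3 with the replicate block. They became 1 with limma-voom and 0 with all 29 libraries in 1 fit. Over all genes tested, 437 higher became 295, 350 and 42 in the same settings. With 1 embryo left out, 1 to 10 members and 282 to 642 of all genes were higher. The 6 lower members became 3 with ERCC counts as library size and 1 with all 29 libraries. Over all genes, 234 lower became 27 and 18 there. With 1 embryo left out, 5 to 9 members and 158 to 424 of all genes were lower. The causes were not tested. Replicate numbers did not pair the embryos: of 8 pairs, 1 had a correlation over 0.1 and 1 embryo correlated best with its own number. The median HU log2 fold change (-0.03) became 0.12 with ERCC library sizes, which moved the median of all genes from 0.04 to 0.19, and ran from -0.07 to 0.02 when 1 embryo was left out. That median was 0.02 with members chosen on the summed cells or the mean of all 17 embryos. For cells against controls, the 16 members 4-fold higher became 41 without Rn45s and mitochondrially encoded genes and 41 with TMM. A member threshold of 50 CPM left 63 members, of which 10 (15.9%) were higher and 26 (41.3%) lower. At 20 CPM these shares were 12.9% and 33.1%. The share over all genes was not taken at 50 CPM. Leaving out 1 library gave 14 to 17 higher and 41 to 44 lower. The median log2 ratio (-0.99) became -0.75 as the mean over cells, -0.0744 without Rn45s, 0.0794 with TMM, -0.71 at a threshold of 10 CPM and -1.59 at 50 CPM, and ran from -1.06 to -0.78 when 1 library was left out. As an alternative chosen after the data were seen, leaving out Rn45s and mitochondrially encoded genes changed the number of members with every control above every cell from 25 to 13, and that with at least 9 cells above every control from 11 to 24. These counts were not taken over all genes. With members at 0 in cells taken at their bound and no pseudocount, the median log2 ratio was -1.02. Slc17a5 and Slc35c2 changed sign with the scaling; no named member past 4-fold did in the settings run. Depth limits the cells: 3 counts over their sum equal 0.125 CPM.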

Other observations

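Among the 231 Slc symbols under the threshold, 14 had no count in cells or controls and 86 were under 1 CPM in both. A further 9 of them reached a mean of at least 20 CPM in the HU embryos, which the choice of members did not use, among them Slc30a1, Slc13a2, Slc39a4, Slc22a20, Slc27a4, Slc2a8, Slc9a8 and Slc25a20. Slc13a2, for example, had no count in cells, a mean of 19.8 CPM in controls and 24.9 CPM in HU embryos. Slco2a1, a prostaglandin transporter outside the Slc list, had 21.6 CPM in cells against 0.148 ± 0.443 CPM in controls (SD, n = 9). Tfrc, the transferrin receptor of iron uptake, had 88.2 CPM in cells, 260 ± 112 CPM in controls (SD, n = 9) and 357 ± 177 CPM in HU embryos (SD, n = 8).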
